A study of Mus musculus with 6 samples.

Results

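The genes described here break down haem or carry it: Hmox1, Hmox2, Blvra, Blvrb, Slc48a1, Flvcr1, Flvcr2, Pgrmc1 and Pgrmc2. They are 9 of the 21853 genes in the table, chosen by symbol, and each symbol stood on 1 row. Messenger RNA was sequenced from embryonic fibroblasts of C57BL/6J mice, with an age of 12 days in the labels. There were 6 libraries: 3 of cells given red clover extract (RCE) and 3 of cells given water (control). Every library, control included, was from xCT knockout cells, which lack the cystine/glutamate antiporter subunit encoded by Slc7a11, so no result here describes cells with xCT. The sources used here give no dose, exposure time or medium, and do not say whether replicates were separate cultures, so a p-value here reflects variation among 6 libraries that may be only technical.

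Haem is the iron-porphyrin group of globins, cytochromes and peroxidases, and free haem is toxic. Haem oxygenases open the ring to biliverdin and release carbon monoxide and ferrous iron; biliverdin reductases then make bilirubin. Because the iron set free can feed ferroptosis, an iron-driven death by lipid peroxidation, or be stored and exported, this pathway is followed where iron handling is studied. Transcription of Hmox1 is repressed by the haem sensor BACH1 and activated by NRF2, both of which bind DNA together with small MAF proteins.

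The libraries held 45650000 to 58950000 fragments each, with 10766 to 10924 genes at 1 FPKM or more. Slc7a11 was at 0.007 to 0.017 FPKM in RCE and 0.013 to 0.037 FPKM in control (p = 0.2 in a 2-sided exact permutation test, which cannot go below 0.1 with 3 libraries a group). Of 9 fibroblast markers 9 had a mean of at least 1 FPKM, and none of the 9 erythroid markers in the table did. The summed macrophage markers, of a cell type rich in haem oxygenase 1, were at 5.03 to 6.07 FPKM in RCE and 6.40 to 6.94 FPKM in control. Of those 9 markers 2 reached a mean of 1 FPKM, and Cd163 was listed at 0 in every library. Summed fibroblast markers were also lower in RCE, at 3821 to 3914 FPKM, against 4140 to 4268 FPKM in control. The part of these sums in the results was not tested.

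Promoters were found for 7 of the 9 genes, but not for Hmox1 or Slc48a1, so neither was searched for motifs. Of those found, 3 are shown because their genes carry the comparisons below. Blvrb passed the test under every alternative fit run, and Pgrmc1 and Pgrmc2 are paralogues whose levels lay on opposite sides of control. Each runs 5′ to 3′ on its own strand, from 250 bases before the RefSeq start site to 50 after it, on GRCm38.p6. Capitals mark either of 2 motifs, searched on both strands: TGACNNNGC, the core of the element that NRF2 with small MAF proteins binds, and the E-box CACGTG. No marked stretch overlaps the other motif, since each sequence held at most 1 match.
Blvrb, chr7:27447728-27448027, plus strand: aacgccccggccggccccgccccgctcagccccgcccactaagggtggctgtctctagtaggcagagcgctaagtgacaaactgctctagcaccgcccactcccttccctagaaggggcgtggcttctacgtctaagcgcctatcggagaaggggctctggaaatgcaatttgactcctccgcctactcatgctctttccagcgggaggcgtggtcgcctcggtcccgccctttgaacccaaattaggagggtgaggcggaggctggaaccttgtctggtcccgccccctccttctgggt
Pgrmc1, chrX:36597943-36598242, plus strand: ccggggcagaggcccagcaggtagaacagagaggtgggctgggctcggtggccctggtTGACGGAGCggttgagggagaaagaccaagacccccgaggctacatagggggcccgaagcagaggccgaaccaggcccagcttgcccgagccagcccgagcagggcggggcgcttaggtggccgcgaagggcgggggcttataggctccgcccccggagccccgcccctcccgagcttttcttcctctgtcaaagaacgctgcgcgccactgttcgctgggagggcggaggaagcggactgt
Pgrmc2, chr3:41082997-41083296, minus strand: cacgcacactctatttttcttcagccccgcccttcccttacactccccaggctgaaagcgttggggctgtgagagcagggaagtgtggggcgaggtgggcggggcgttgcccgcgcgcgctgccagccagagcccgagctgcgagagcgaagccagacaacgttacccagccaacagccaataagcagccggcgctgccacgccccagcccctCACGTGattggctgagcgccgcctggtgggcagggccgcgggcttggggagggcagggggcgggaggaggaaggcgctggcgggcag
Blvrb held neither motif in this window. Pgrmc1 held TGACNNNGC, beginning at position -192 from the start site, and Pgrmc2 held CACGTG at position -37. Among all 32851 promoters in the RefSeq table, 12.4% held TGACNNNGC and 7.15% held CACGTG. Of the 7 genes, which had 10 promoters, Blvra, Flvcr1 and Pgrmc1 held TGACNNNGC and Flvcr2 and Pgrmc2 the E-box. These are counted by gene and the shares above by promoter. The other Blvrb promoter, not shown, also held neither motif. These are matches of letters, not sites shown to be bound.

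With the extract, RNA of 3 genes rose: Blvrb by 35.5%, the haem transporter Slc48a1 by 30.9% and Hmox1 by 19.1%, as ratios of mean FPKM. None of the 9 fell by the test, and 6 did not pass it. Over all 10870 tested genes, 17.6% were called higher and 6.77% lower by limma (Benjamini-Hochberg adjusted p, threshold 0.05). The median change of the 9 was 0.16 on the log2(FPKM + 1) scale, as RCE minus control, beside 0.08 for all tested genes. Median-of-ratios scaling, which centres that second median at 0.00, gave the 9 a median of 0.07, with 2 higher (Blvrb and Slc48a1) and 1 lower (Pgrmc2), beside 8.40% and 9.95% of all genes. With replicate number as a block, 5 were higher (also Hmox2 and Pgrmc1) and 1 lower (Pgrmc2), beside 46.6% and 15.9%; without replicate 1 of both groups the same 5 and 1 passed, beside 40.1% and 13.6%. In bulk RNA, fewer cells that make a transcript and less of it per cell cannot be told apart.

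**Figure D1:**
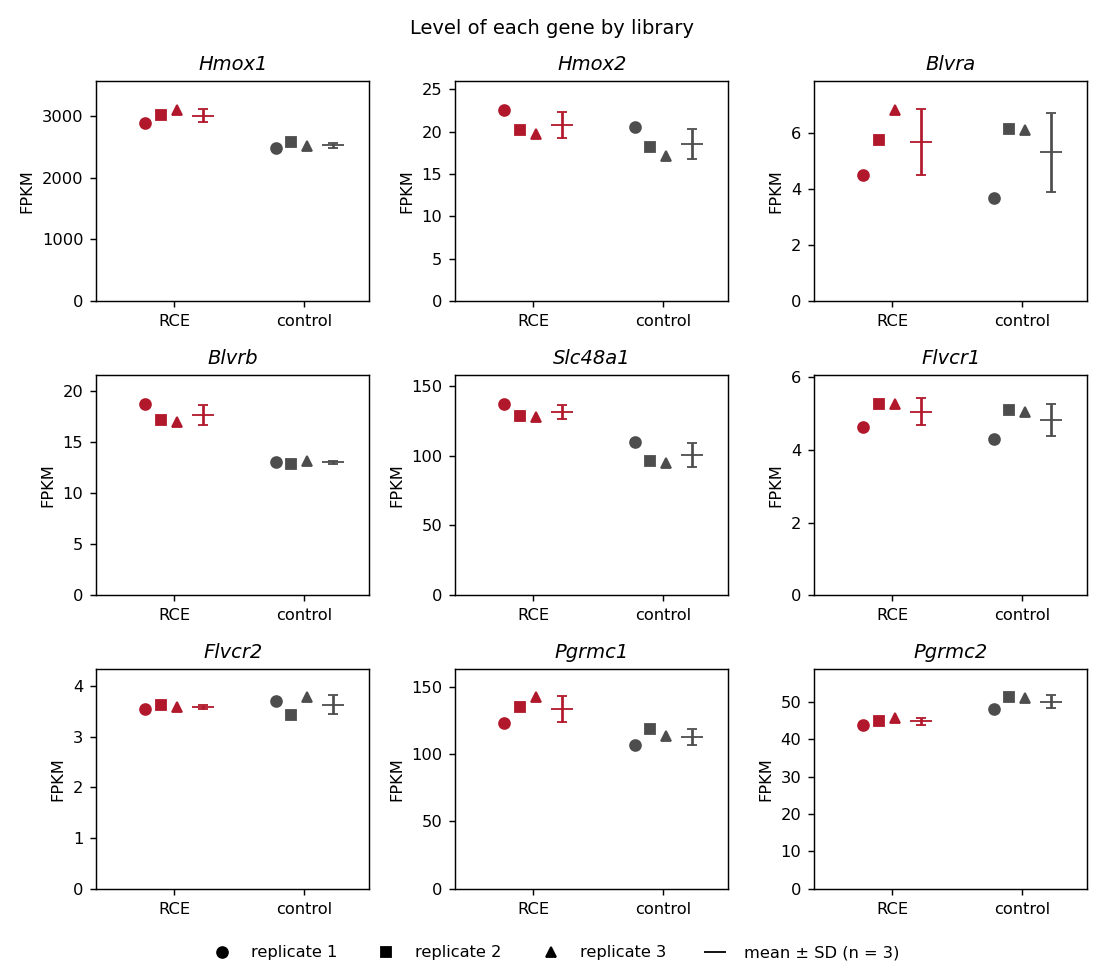
Level in FPKM (y axes, from 0) of each of the 9 genes in the 3 RCE and 3 control libraries, with symbols for the replicate number and bars for the mean ± SD (n = 3). Hmox1, Blvrb, Slc48a1 and Pgrmc1 have all 3 RCE values above all 3 control values, Pgrmc2 has them below, and the other 4 overlap. Of all tested genes, 31.2% lie wholly above control and 10.9% wholly below.

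FPKM are per length of transcript, so levels of different genes can be set side by side. Hmox1 ranked between 3 and 6 in every library among all 21853 genes, which are protein coding and include 0 mitochondrial genes. Pgrmc1 and Slc48a1 followed with ranges that overlapped within each group, so their order was not settled. Pgrmc2, Hmox2 and Blvrb came next, in that order, and did not overlap in either group. Blvra overlapped Flvcr1 in both groups and Flvcr2 in control, while Flvcr1 lay above Flvcr2, at 3.42 to 3.78 FPKM, in both. By length and depth, about 194780 to 279370 fragments lay behind a value of Hmox1 and about 291 to 558 behind one of Blvra.

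Among the haem oxygenases, Hmox1 (ENSMUSG00000005413, chromosome 8, 75093621 to 75100589, mm10) encodes the inducible enzyme. Its level was 2888, 3020 and 3098 FPKM in RCE replicates 1, 2 and 3, against 2476, 2570 and 2518 FPKM in control replicates 1, 2 and 3. All 3 RCE libraries lay above all 3 control libraries, as they did for 31.2% of all tested genes. The means were 3002 ± 106 FPKM in RCE and 2521 ± 47.0 FPKM in control (SD, n = 3 each), a log2 change of 0.25 (SE 0.06, 95% interval 0.11 to 0.39, limma adjusted p = 0.0261). The call ended with median-of-ratios scaling (log2 change 0.16, limma adjusted p = 0.0888), quantile normalization (0.16, adjusted p = 0.194) and no low-value filter (adjusted p = 0.217). It also ended without control replicates 1, 2 or 3 (limma adjusted p = 0.0612, 0.0770 and 0.0881) and without RCE replicates 2 or 3 (0.114 and 0.102).

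Hmox2 (ENSMUSG00000004070, chromosome 16, 4726361 to 4766742) encodes the constitutive haem oxygenase. It was at 22.6, 20.2 and 19.7 FPKM in RCE and 20.5, 18.1 and 17.1 FPKM in control, in replicates 1, 2 and 3. The groups overlapped, since replicate 1 was the highest library of both. The log2 change was 0.16 (SE 0.08, 95% interval -0.04 to 0.36, limma adjusted p = 0.217), and each same-numbered pair was higher in RCE, by 0.13, 0.14 and 0.20. With the replicate block it was called higher (limma adjusted p = 0.00151), as it was without replicate 1 of both groups (adjusted p = 0.00679). Exons of Hmox2 overlap those of Cdip1 on the opposite strand. Without a stated strand setting their reads cannot be told apart, and Cdip1 also rose, at 7.71 to 7.92 FPKM in RCE and 6.71 to 7.04 FPKM in control (log2 change 0.16, limma adjusted p = 0.0327).

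Whether the 2 oxygenases responded differently was asked by their ratio within a library, which no factor applied to a whole library changes. There were 128, 150 and 157 times as many FPKM of Hmox1 as of Hmox2 in RCE replicates 1, 2 and 3, against 120, 142 and 147 in control replicates 1, 2 and 3. The groups overlapped, with a log2 difference of 0.09 (2-sided exact permutation test, p = 0.5). It was higher in RCE in 3 of 3 same-numbered pairs, by 0.09, 0.08 and 0.09 (paired exact permutation test, p = 0.25, the smallest that 3 pairs can give). Without control replicate 1 the unpaired difference was -0.001. A difference in response between the oxygenases was thus not shown by the unpaired test, whose smallest possible p is 0.1.

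Of the biliverdin reductases, Blvrb (ENSMUSG00000040466, chromosome 7, 27447978 to 27466144) encodes the form that also acts as a flavin reductase. Its level was 18.8, 17.1 and 17.0 FPKM in RCE, against 13.1, 12.9 and 13.1 FPKM in control. The RCE libraries all lay above the control libraries, which all fell within 12.9 to 13.1 FPKM. Means were 17.6 ± 0.998 FPKM in RCE and 13.0 ± 0.136 FPKM in control (SD, n = 3 each), a log2 change of 0.41 (SE 0.05, 95% interval 0.29 to 0.53, limma adjusted p = 0.00342). Blvrb passed the threshold in 17 of 17 alternative fits, with changes of 0.33 to 0.43 and adjusted p up to 0.0220.

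Blvra (ENSMUSG00000001999, chromosome 2, 127070665 to 127097084) encodes the main reductase of the biliverdin that haem oxygenases make. It was at 4.48, 5.73 and 6.82 FPKM in RCE and 3.68, 6.14 and 6.10 FPKM in control. Replicate 1 was the lowest library of both groups, and the groups overlapped. The log2 change was 0.09 with a 95% interval from -0.39 to 0.58 (limma adjusted p = 0.776, and 0.177 with the replicate block). Its sign turned without RCE replicate 3 (-0.03) and without control replicate 1 (-0.11). The ratio of Blvrb to Blvra was 4.19, 2.99 and 2.49 in RCE, against 3.55, 2.10 and 2.15 in control. It was higher in RCE in 3 of 3 same-numbered pairs but overlapped between groups (log2 difference 0.32, 2-sided exact permutation test, p = 0.4).

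Slc48a1 (ENSMUSG00000081534, chromosome 15, 97778520 to 97792692) encodes HRG1, which moves haem out of endosomes and lysosomes into the cytosol. It was at 137, 129 and 128 FPKM in RCE, against 110, 96.2 and 94.8 FPKM in control. No RCE library overlapped a control library, and replicate 1 was the highest of each group. Means were 131 ± 5.28 FPKM in RCE and 100.3 ± 8.44 FPKM in control (SD, n = 3 each), a log2 change of 0.39 (SE 0.07, 95% interval 0.21 to 0.56, limma adjusted p = 0.0124). The call ended without control replicate 2 (limma adjusted p = 0.0548), control replicate 3 (0.0524) and RCE replicate 2 (0.0518), where the change stayed between 0.35 and 0.40. With median-of-ratios scaling Slc48a1 only just passed (log2 change 0.30, limma adjusted p = 0.0484). Its exons overlap Hdac7 on the opposite strand, which also rose (log2 change 0.31, limma adjusted p = 0.0412) and was at 17.3 to 20.4 FPKM in RCE and 14.0 to 16.2 FPKM in control. A processed pseudogene, Gm7814, matched 429 bases of the transcript at 90.2% identity. The part of either in the value was not tested.

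Flvcr1 and Flvcr2 encode related membrane transporters first described as a haem exporter and a proposed haem importer, both since linked to choline transport. Flvcr1 (ENSMUSG00000066595, chromosome 1, 191005847 to 191026158) was at 4.63, 5.26 and 5.28 FPKM in RCE and 4.31, 5.11 and 5.04 FPKM in control. Flvcr2 (ENSMUSG00000034258, chromosome 12, 85746539 to 85813585) was at 3.55, 3.64 and 3.58 FPKM in RCE and 3.71, 3.42 and 3.78 FPKM in control. Groups overlapped for both. Log2 changes were 0.06 for Flvcr1 (95% interval -0.12 to 0.24, limma adjusted p = 0.609) and -0.01 for Flvcr2 (-0.12 to 0.09, limma adjusted p = 0.860), and neither passed in any of 16 alternative fits. The sign of Flvcr1 turned with median-of-ratios scaling (-0.01), quantile normalization (-0.04) and without control replicate 1 (-0.01). The ratio of Flvcr1 to Flvcr2 was 1.31, 1.45 and 1.47 in RCE, against 1.16, 1.49 and 1.33 in control (log2 difference 0.09, 2-sided exact permutation test, p = 0.7). Exons of Flvcr1 overlap an antisense gene, A230020J21Rik, on the opposite strand.

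Pgrmc1 and Pgrmc2 encode membrane proteins of the cytochrome b5-like family that bind haem and are described as haem chaperones; PGRMC1 also interacts with ferrochelatase and cytochromes P450. Pgrmc1 (ENSMUSG00000006373, chromosome X, 36598206 to 36606079) was at 123, 135 and 142 FPKM in RCE, against 107, 119 and 113 FPKM in control. Pgrmc2 (ENSMUSG00000049940, chromosome 3, 41066326 to 41083046) was at 43.6, 44.9 and 45.5 FPKM in RCE, against 47.9, 51.1 and 50.9 FPKM in control. Neither gene overlapped between groups, with Pgrmc1 above and Pgrmc2 below control; of all tested genes 31.2% lay wholly above and 10.9% wholly below.

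Neither passed the threshold with the deposited scaling, all 6 libraries and no block. The log2 change of Pgrmc1 was 0.24 (SE 0.07, 95% interval 0.06 to 0.41, limma adjusted p = 0.0575), and that of Pgrmc2 was -0.16 (SE 0.05, 95% interval -0.27 to -0.05, limma adjusted p = 0.0519). With the replicate block both were called (limma adjusted p = 5.34e-04 for Pgrmc1 and 9.28e-04 for Pgrmc2), as they were without replicate 1 of both groups (0.00141 and 0.00249). Their calls depended on the scaling. With median-of-ratios scaling, which lowered both changes, Pgrmc2 was called lower (-0.24, adjusted p = 0.0109) and Pgrmc1 was further from the threshold (0.15, adjusted p = 0.158), while quantile normalization gave Pgrmc1 0.28 (adjusted p = 0.0485) and Pgrmc2 -0.13 (adjusted p = 0.0858). GC correction brought both past the threshold (limma adjusted p = 0.0335 for Pgrmc1 and 0.0353 for Pgrmc2). So did leaving out RCE replicate 1 for Pgrmc1 (0.0260), and leaving out control replicate 1 (0.0450), no intensity trend (0.0473) or no low-value filter (0.0491) for Pgrmc2.

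The ratio of Pgrmc1 to Pgrmc2, which does not depend on a library's scaling factor, was 2.82, 3.00 and 3.12 in RCE replicates 1, 2 and 3, against 2.23, 2.32 and 2.22 in control replicates 1, 2 and 3. The RCE ratios all lay above the control ratios. This follows from Pgrmc1 lying wholly above control and Pgrmc2 wholly below, so it is no separate result. The exact p of this ratio was thereby fixed at the floor of the test. Means were 2.98 ± 0.154 in RCE and 2.26 ± 0.0562 in control (SD, n = 3 each). The log2 difference was 0.40 (2-sided exact permutation test, p = 0.1, or 0.4 adjusted over the 4 ratios compared). Since 0.1 is the floor of this test, the design could not pass 0.05. It was 0.37 to 0.44 with any 1 library left out, and 0.34, 0.37 and 0.49 in the pairs numbered 1, 2 and 3. The other three ratios overlapped between groups.

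**Figure D2:**
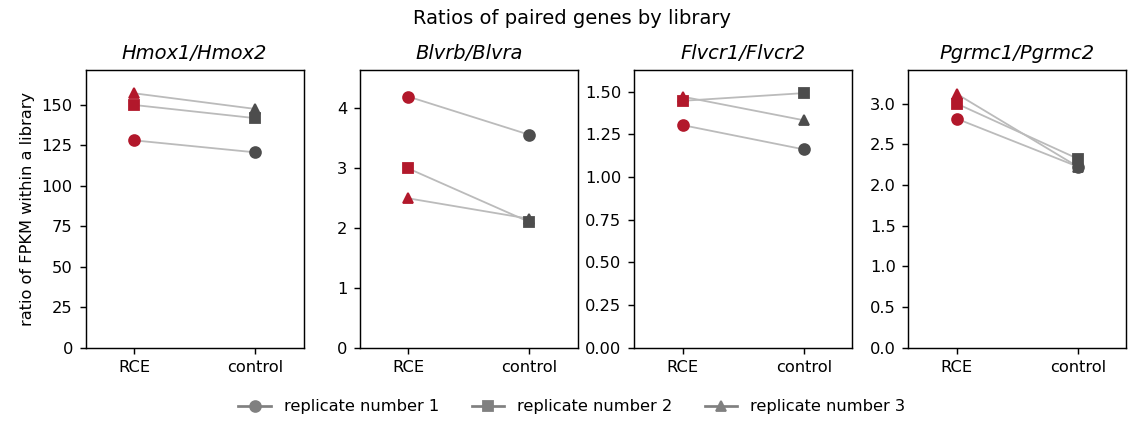
Ratio of FPKM of 2 genes within a library (y axes, from 0) for RCE (left) and control (right), with grey lines joining libraries of equal replicate number. Of the 4 ratios, Pgrmc1/Pgrmc2 separates the groups, at 2.82 to 3.12 in RCE and 2.22 to 2.32 in control. This follows from the levels of Pgrmc1 and Pgrmc2 in RCE, which lie wholly above and wholly below control.

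**Figure D3:**
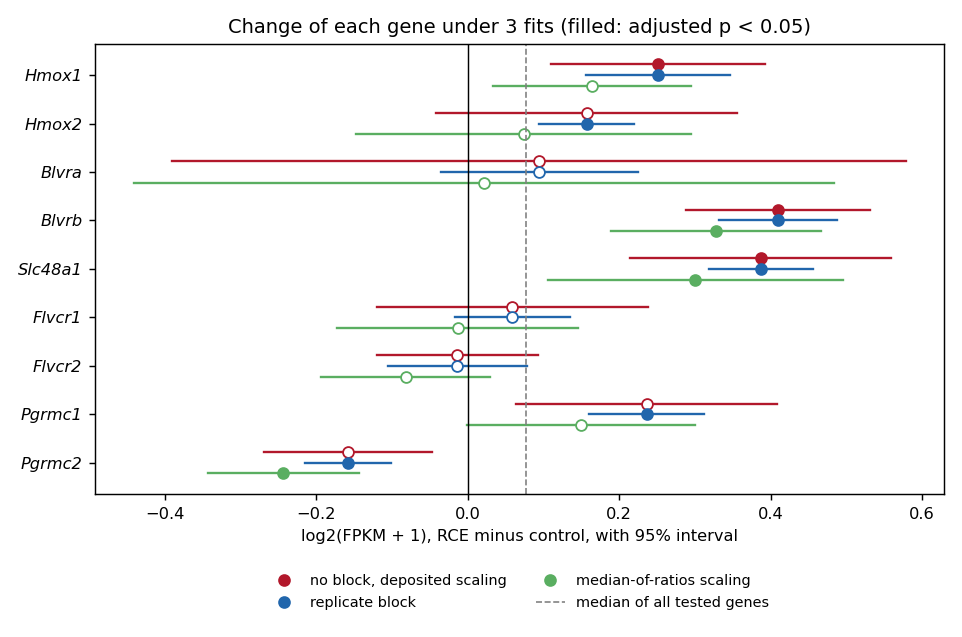
Change of each gene on the log2(FPKM + 1) scale, RCE minus control, with 95% intervals (x axis), in the fit without a block, with the replicate block and with median-of-ratios scaling. Filled points have an adjusted p below 0.05, and Blvrb and Slc48a1 are filled in all 3 fits. The dashed line is the median of all tested genes with the deposited scaling, 0.08. That median is 0.00 with median-of-ratios scaling, so the line is no baseline for those points.

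The plot of changes by fit shows how the block acts. It leaves each estimate in place and gave each of the 9 a smaller SE. For Hmox2 and Blvra, in which replicate 1 stood apart in both groups, the SE was 0.03 and 0.06 with the block, against 0.08 and 0.20 without it.

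Transcripts whose levels followed those of Hmox1 most closely over the 6 libraries were sought among 7666 other genes whose mean reached 5 FPKM. The 5 with the highest Pearson r on the log2(FPKM + 1) scale were Cog5, Uhrf1bp1, Klhl13, Hmgn2 and Ipo5, at 0.998 to 0.999. For Blvrb they were Kcmf1, Cpped1, Paqr3, Nat10 and Trmt5, at 0.995 to 0.998. With 6 libraries that fall into 2 groups, and replicate 1 apart in both, values this high among so many genes only describe the ranking.

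Haem synthesis was measured by 8 enzymes, of which 3 were higher, 0 lower and 5 not past the threshold (median change 0.15). The counts of this and the following lists stand beside 17.6% higher, 6.77% lower and a median of 0.08 over all tested genes. The higher ones were Cpox, coproporphyrinogen oxidase (30.0 ± 0.775 FPKM in RCE and 24.4 ± 0.937 FPKM in control, SD, n = 3 each; log2 change 0.29, limma adjusted p = 0.00821), Alad, which makes porphobilinogen (0.29, adjusted p = 0.0158), and Fech, ferrochelatase, which inserts the iron (0.19, adjusted p = 0.0306). With median-of-ratios scaling Cpox alone was called (adjusted p = 0.0488). With the replicate block 4 of the 8 were higher and 0 lower, beside 46.6% and 15.9% of all tested genes. With quantile normalization the calls of Alad (adjusted p = 0.0565) and Fech (0.11, adjusted p = 0.248) ended, as did that of Fech with GC correction (adjusted p = 0.0673). Calls of both Alad and Fech also ended without control replicate 2 (adjusted p = 0.0605 and 0.108), control replicate 3 (0.0662 and 0.107) or RCE replicate 2 (0.0736 and 0.109), and that of Fech without RCE replicate 1 (0.0590) or RCE replicate 3 (0.0645). Of 10 other tested haem carriers and binding proteins, 2 were higher and 0 lower (median 0.05), near the 17.6% and 6.77% of all tested genes. These were Slc46a1, the proton-coupled folate and haem carrier, at 5.88 ± 0.147 FPKM in RCE and 4.71 ± 0.0783 FPKM in control (SD, n = 3 each; log2 change 0.27, limma adjusted p = 0.00541), and Abcb6, a porphyrin transporter (0.33, adjusted p = 0.0167). The call of Abcb6 ended without control replicate 2 (adjusted p = 0.0518), RCE replicate 2 (0.0722) or RCE replicate 3 (0.0642). The haem-binding relatives of PGRMC proteins, Nenf and Cyb5d2, were at 0.01 (adjusted p = 0.950) and 0.05 (adjusted p = 0.639).

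Regulators linked to haem or NRF2 included 3 of 9 tested that fell and 0 that rose (median -0.18). Maff, a small MAF protein, was at 12.5 ± 0.477 FPKM in RCE and 25.4 ± 0.600 FPKM in control (SD, n = 3 each; log2 change -0.96, limma adjusted p = 1.02e-04). Mafk, another small MAF, changed by -0.45 (adjusted p = 0.00277) and Nfe2l2, which encodes NRF2, by -0.42 (adjusted p = 0.0136). The call of Nfe2l2 ended without RCE replicate 2 (adjusted p = 0.0637) or RCE replicate 3 (0.0548). Bach1, the repressor of Hmox1, was at -0.18 (adjusted p = 0.135, 0.00105 with the replicate block and 0.0433 with median-of-ratios scaling), and Keap1, which marks NRF2 for breakdown, at 0.01 (adjusted p = 0.934).

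Known NRF2 targets other than Hmox1 did not share 1 direction: of 19 tested, 5 were higher, 1 lower and 13 not past the threshold (median 0.18), against 17.6% higher and 6.77% lower over all tested genes. Nqo1, a quinone reductase, was at 101, 123 and 127 FPKM in RCE, against 64.9, 76.1 and 76.3 FPKM in control (log2 change 0.68, limma adjusted p = 0.00738). The 2 subunits of the enzyme that starts glutathione synthesis moved in opposite directions. The modifier subunit Gclm rose to 34.4 ± 1.68 FPKM in RCE, against 27.5 ± 1.31 FPKM in control (SD, n = 3 each; 0.32, adjusted p = 0.0115, and 0.0507 with median-of-ratios scaling). The catalytic subunit Gclc fell to 29.2 ± 1.58 FPKM in RCE, against 40.3 ± 1.75 FPKM in control (-0.45, adjusted p = 0.00364). Txnrd1, thioredoxin reductase 1, changed by 0.28 (adjusted p = 0.0126), a call that ended without control replicate 3 (0.0518), RCE replicate 2 (0.0648) or RCE replicate 3 (0.0575).

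Of 8 tested genes of iron release, uptake and storage, 1 was higher and 0 lower (median 0.06), near those same shares. That gene was Slc40a1, the iron exporter ferroportin, at 4.01, 5.87 and 6.11 FPKM in RCE, against 1.76, 2.46 and 2.45 FPKM in control (log2 change 0.97, limma adjusted p = 0.00810). Among 12 tested haem proteins and partners, a list that also holds the flavoproteins Por and Sqle, 3 were higher and 3 lower (median 0.03). Cyp1b1, a cytochrome P450, rose to 158 ± 4.75 FPKM in RCE, against 94.5 ± 2.82 FPKM in control (SD, n = 3 each; log2 change 0.74, limma adjusted p = 3.62e-04). Cyb5a (0.25, limma adjusted p = 0.0190) and Cat (0.32, adjusted p = 0.0310) were also higher. Both of these calls ended with median-of-ratios scaling (limma adjusted p = 0.0535 and 0.129). Ptgs2, the inducible cyclooxygenase, fell (-1.44, adjusted p = 5.22e-05), as did the sterol synthesis enzymes Sqle (-0.55, adjusted p = 0.00240) and Cyp51 (-0.39, adjusted p = 0.00419).

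**Figure D4:**
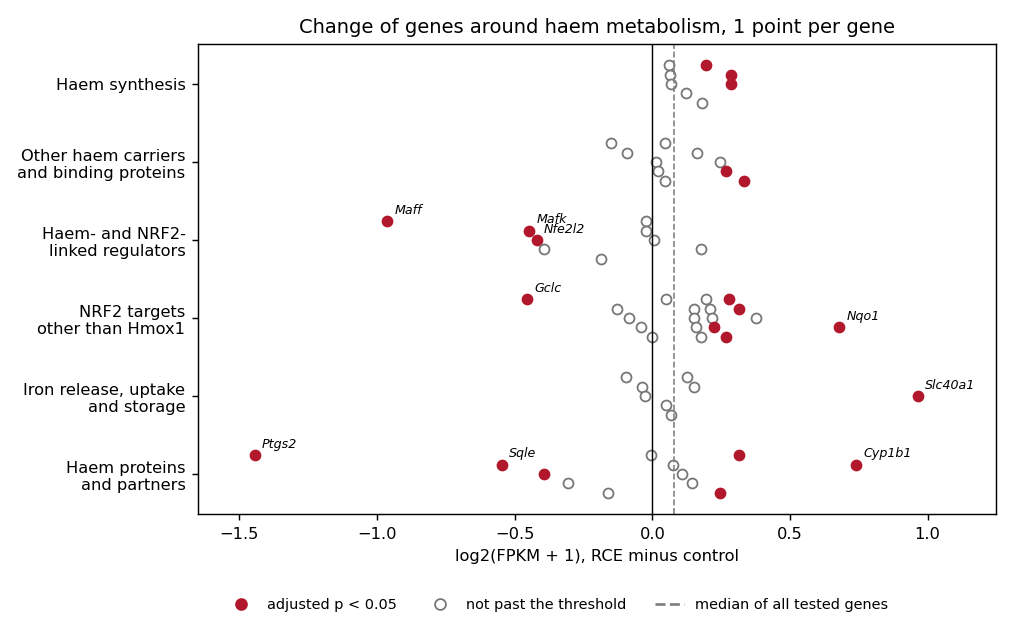
Change on the log2(FPKM + 1) scale, RCE minus control (x axis), of each tested gene of 6 lists around haem metabolism, 1 point per gene. Red filled points have an adjusted p below 0.05, names mark those past 0.4 in size, and the dashed line is the median of all tested genes; the regulators have red points on the left alone, while NRF2 targets have them on both sides.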

How the data were processed

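The deposited table held 1 FPKM value per gene and library (fragments per kilobase of transcript scaled to depth) for 21853 genes. The file header names no unit; FPKM follows from the submitters' processing notes and the values. Tools named there, with no roles, are STAR 2.5.4, Cuffdiff 2.2.1 and Cufflinks, and the build is mm10; the annotation, filters and strand setting are not given in the sources used here. These values are relative, so a gene that takes more of a library lowers the others, and a count model would be unfit for them.

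Members were matched by gene symbol. Coordinates and transcript lengths came from GENCODE M21, a mouse annotation of the same build, which held all 21853 Ensembl identifiers. Promoters came from RefSeq on GRCm38.p6 and were found for 7 of 9 members. Members' transcripts were compared with all annotated transcripts by BLAST 2.17.0 (at least 85% identity over at least 150 bases). Depth was recovered from the low values of genes with 1 annotated transcript, at which 100% of 297 to 327 values per library fell within 0.1 of a whole fragment.

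RCE was compared with control by limma 3.58.1 (R 4.3.3) with an intensity trend on log2(FPKM + 1), over the 10870 genes whose mean reached 1 FPKM, 2-sided, with Benjamini-Hochberg adjustment over all of them and a threshold of 0.05. The fit was tested on simulated data, with noise drawn independently for each library and no offset shared by replicate number. Of 50 genes each, it called 72% of those raised by 0.5 (log2) and 70% of those lowered by 0.5. For changes of 1 it called 94% of raised and 96% of lowered genes. Of unchanged genes 0.075% were called. All 9 members changed by less than 0.5, and changes that small were not simulated. Ratios of 2 genes within a library were compared by 2-sided exact permutation tests. Over recovered fragments, replicate 1 differed from replicates 2 and 3 of its group by a chi-square of 22.0 to 29.6 per degree of freedom, and replicates 2 and 3 from each other by 2.86 in RCE and 5.03 in control. Each was more than counting error alone, so all 6 were used as replicates. Groups share replicate numbers 1 to 3. Across genes, libraries with equal numbers deviated together from their group means (r = 0.92, 0.62 and 0.68), so where adding the number as a block alters a call, that value is printed too; the leading fit has no block. Crossed numbers correlated more for replicates 2 and 3 (0.72 for RCE 2 against control 3, and 0.77 for RCE 3 against control 2). The data thus set replicate 1 apart but do not match replicates 2 and 3 by number, and the labels do not say what a number stands for.

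Members, gene lists, motifs and tests were chosen with earlier results of these data known. Named are all members, up to 4 genes with the smallest p of each related list, and the 5 genes most like Hmox1 and the 5 most like Blvrb. Bach1, Keap1, Nenf, Cyb5d2, Cyb5a, Cat and genes that share exons with a member were named after their values were seen. Alternatives were other pseudocounts, low-value filters, scalings and priors, the replicate block, GC correction and leaving out libraries.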

Additional observations from a re-analysis of the deposited data

How the results depend on the processing

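The choice of fit moved the number of called members. Of the 9, the number higher was 5 with the replicate block, with GC correction and replicate block, and without replicate 1 of both groups, against 3 in the fit without a block, and ran from 1 to 4 with 1 library left out. It was 1 without control replicate 2, control replicate 3 or RCE replicate 2, which left Blvrb. The number lower was 1 (Pgrmc2) with the replicate block, GC correction with or without the block, median-of-ratios scaling, no intensity trend, no low-value filter and without replicate 1 of both groups, and ran from 0 to 1 with 1 library left out. The block changed no call of Blvra, Flvcr1 or Flvcr2. Over all genes, 5060 were higher and 1730 lower with the replicate block, against 1910 and 736 without it. Counts were 5009 and 1722 with GC correction and replicate block, and 4364 and 1480 without replicate 1 of both groups. They were 2132 and 804 with GC correction alone, and 1887 and 739 with no intensity trend. No low-value filter, which tests more genes, gave 1964 and 909. A mean of at least 5 FPKM, which tests fewer genes, gave 867 and 485. Scaling gave 913 higher and 1082 lower (median-of-ratios) and 785 higher and 857 lower (quantile normalization); median-of-ratios scaling centres the median of all genes, which itself moves the balance of higher and lower calls. Leaving out 1 library gave 685 to 2040 higher and 394 to 734 lower. The cause of these shifts was not tested. Fits that leave out libraries or genes also differ from the others in the number of samples or genes.

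List counts with the replicate block, higher and lower, were 5 and 5 for haem proteins and partners and 1 and 5 for regulators. For iron they were 3 and 1, and for NRF2 targets 13 and 2. Other haem carriers gave 4 and 2, and the 8 haem synthesis enzymes 4 and 0. Of all tested genes, 46.6% were higher and 15.9% lower in that fit. With median-of-ratios scaling the list counts were 1 and 4 for haem proteins and partners, and 1 and 0 for haem synthesis. NRF2 targets gave 2 and 1, regulators 0 and 4, iron 1 and 0, and other haem carriers 2 and 0. These stand beside 8.40% and 9.95% of all tested genes. Signs of uncalled changes turned for Blvra (-0.11 to 0.23 with 1 library left out), Flvcr1 (-0.0133 with median-of-ratios scaling, -0.0399 after quantile normalization, and -0.00565 to 0.11 with 1 library left out) and Flvcr2 (0.00434 without replicate 1 of both groups, and -0.0469 to 0.00879 with 1 library left out). With 1 library left out, the log2 ratio differences ran from -0.00092 to 0.17 for Hmox1/Hmox2 and from -0.00482 to 0.18 for Flvcr1/Flvcr2, both turning without control replicate 1. They ran from 0.12 to 0.57 for Blvrb/Blvra and 0.37 to 0.44 for Pgrmc1/Pgrmc2. Paired by number, the exact permutation p of the ratios was 0.25 or 0.5, where 0.25 is the smallest possible. Members at 3 to 7 FPKM rest on 291 to 1253 fragments. Their SE in the fit without a block was 0.20 for Blvra, 0.07 for Flvcr1 and 0.04 for Flvcr2. A change within the interval of each was not detectable here.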
